A study of Homo sapiens and Mus musculus with 6 samples.

Results

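The genes of the signalling lymphocyte activation molecule (SLAM) family and of the CD2 locus were followed through Promoter Capture Hi-C (CHi-C), which enriches a Hi-C library for restriction fragments that carry gene promoters. The 10 members were SLAMF1, SLAMF6, SLAMF7, SLAMF8, CD48, CD84, CD244, LY9, CD2 and CD58, and a call was kept where a member was named on the fragment at either end. In GM12878 this gave 172 of 92929 calls. The comparison was with the same symbols in mouse embryonic stem cells (mESCs), where 54 of 101841 calls had a member at an end. GM12878 is a human lymphoblastoid line, made from B lymphocytes by Epstein-Barr virus, and its calls came from 3 biological replicates. The mESCs were the J1 line of strain 129S4/SvJae, expanded on irradiated fibroblasts and passaged to remove these feeder cells, with 2 biological replicates and a further Hi-C library. The labels name no treatment other than fixation in formaldehyde. Each GM12878 library derives from the same line and each mESC library from the same strain, so the comparison holds both a difference of species and a difference of cell type, which cannot be told apart.

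SLAM family receptors are immunoglobulin-like proteins on blood cells. Most of them bind a copy of themselves on a neighbouring cell, and several signal through the small adaptor SAP, encoded by SH2D1A. CD244 binds CD48, a protein held to the membrane by a lipid anchor. CD2 is an adhesion receptor of T cells and natural killer cells, and its human ligand CD58 is encoded near it. B cells carry several of these receptors, among them SLAMF1, CD84, SLAMF6, LY9 and CD48. Mouse embryonic stem cells are not a blood cell type and served here as the contrast. The lists hold contacts and no expression, so the identity of the cells could not be checked by marker genes.

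In a CHi-C list, a call joins a bait, a captured HindIII fragment with a promoter, to another fragment. Its CHiCAGO score measures how far the reads exceed a background of random collisions and technical noise, and 5 was the lowest score the authors kept. Since the authors made the calls on all replicates of a cell type together, there is 1 value per cell type with no spread between replicates. No test between the cell types was possible, and the Wilson or order-statistic 95% intervals given below cover counting error only. Neighbouring fragments are not independent. A fragment absent from the lists had no call and may or may not have been captured.

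All 10 human members had a listed fragment, all on chromosome 1 of hg19, and each of these fragments carried the annotated start of its gene. The core SLAM cluster at 1q23 ran over 378 kb, from the end of SLAMF6 at chr1:160454820 to the start of CD244 at chr1:160832677, in the order SLAMF6, CD84, SLAMF1, CD48, SLAMF7, LY9 and CD244. SLAMF8 lay 689 kb from the SLAMF6 fragment, and CD58 and CD2 lay 183 kb apart at 1p13. In mouse, 7 members had a listed fragment. Slamf6, Cd84, Slamf1, Cd48, Slamf7 and Cd244 lay on mm9 chromosome 1 in the same relative order, over 390 kb, and Cd2 lay on chromosome 3. No fragment named Slamf8, Ly9 or Cd58 was in the mESC list, and rodents lack a CD58 gene.

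The restriction site decides what a promoter fragment contains. RefSeq promoter sequences of GRCh38.p14, from 250 bases before to 50 bases after the gene start, were matched by symbol for 7 of the 10 members, and 2 of these hold a HindIII site, against 5.84% of 35116 promoters. The sequences of the 5 members on which the results turn are given 5′ to 3′ on the gene's strand, with the HindIII site in capitals. They show where the digest cuts SLAMF1 and CD244, and how differently the promoters of CD2 and CD58 are composed.
SLAMF6, chr1:160523206-160523505, minus strand: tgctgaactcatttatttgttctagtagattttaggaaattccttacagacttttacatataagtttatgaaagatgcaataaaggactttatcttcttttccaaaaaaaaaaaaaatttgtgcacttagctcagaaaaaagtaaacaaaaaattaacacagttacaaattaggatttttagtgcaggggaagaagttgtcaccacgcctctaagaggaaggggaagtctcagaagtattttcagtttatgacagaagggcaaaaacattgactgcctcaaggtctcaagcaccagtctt
SLAMF1, chr1:160646995-160647294, minus strand: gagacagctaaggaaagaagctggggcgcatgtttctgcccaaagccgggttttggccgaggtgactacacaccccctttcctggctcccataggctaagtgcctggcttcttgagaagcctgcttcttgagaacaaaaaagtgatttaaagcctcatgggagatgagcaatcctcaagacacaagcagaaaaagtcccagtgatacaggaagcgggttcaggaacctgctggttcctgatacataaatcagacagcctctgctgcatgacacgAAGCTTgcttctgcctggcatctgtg
CD244, chr1:160862838-160863137, minus strand: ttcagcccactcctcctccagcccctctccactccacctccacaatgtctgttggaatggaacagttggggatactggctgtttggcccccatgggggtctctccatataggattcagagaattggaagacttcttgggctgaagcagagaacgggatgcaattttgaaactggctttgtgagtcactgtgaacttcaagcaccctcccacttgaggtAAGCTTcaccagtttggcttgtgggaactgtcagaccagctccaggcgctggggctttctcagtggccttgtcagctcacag
CD2, chr1:116754180-116754479, plus strand: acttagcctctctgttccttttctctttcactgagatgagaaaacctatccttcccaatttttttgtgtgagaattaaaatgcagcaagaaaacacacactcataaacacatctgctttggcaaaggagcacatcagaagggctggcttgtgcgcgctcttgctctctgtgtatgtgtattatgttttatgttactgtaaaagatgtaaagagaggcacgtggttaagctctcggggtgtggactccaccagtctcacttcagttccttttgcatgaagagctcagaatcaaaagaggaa
CD58, chr1:116570977-116571276, minus strand: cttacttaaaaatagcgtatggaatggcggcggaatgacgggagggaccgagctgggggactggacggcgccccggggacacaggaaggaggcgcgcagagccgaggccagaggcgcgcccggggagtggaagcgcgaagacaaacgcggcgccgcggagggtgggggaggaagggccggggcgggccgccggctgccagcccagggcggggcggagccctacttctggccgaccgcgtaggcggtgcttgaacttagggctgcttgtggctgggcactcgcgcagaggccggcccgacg

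In the SLAMF1 promoter the site begins 24 bases after the gene start, so the captured fragment held 11167 bases upstream of the start and 28 bases of the gene. The CD244 promoter is cut on the other side, where the site begins 32 bases before the start. Its captured fragment therefore held 27 bases of upstream sequence and 2072 bases of the gene, and the rest of its promoter belonged to the next fragment. The CD58 promoter holds 36 CpG dinucleotides, more than 87.3% of all promoters in the table. The other 6 members hold between 1 (SLAMF6) and 5 (SLAMF8, SLAMF1 and CD48), below the median of 14. None of the 7 promoters matched any of the 4 motifs searched on both strands. These were a CTCF core (CCA, 2 free bases, AG, 2 free bases, GGC), found in 2.41% of all promoters, and an EBF1 site (TCCC, 2 free bases, GGGA), found in 1.21%. A composite site of PU.1 and IRF factors (GGAA, 1 free base, TGAAA) was found in 0.615% and a RUNX site (TGTGGTT and 1 free base) in 4.25%. A match or its absence says only whether these letters are in the window.

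The members differed widely in how many contacts were called from them in GM12878. SLAMF1 led with 27 calls as bait, followed by SLAMF6 with 25 and LY9 with 24. SLAMF1 is the founding receptor of the family, SLAMF6 and LY9 are self-binding receptors, and without a spread between replicates the order of these 3 cannot be set. SLAMF7, known as a surface protein of plasma cells, had 18 calls and CD58 had 17. CD2 had 12 calls and CD48 had 8. CD84 and CD244 had 4 calls each, and SLAMF8, whose short cytoplasmic tail lacks the SAP-binding motif, had 3. Over the 15389 GM12878 baits with a call the median was 3 calls, with quartiles of 1 and 7, and over the 10 members it was 14.5. Captured baits without a call are not in the lists, so the medians and ranks of both cell types leave them out. The 3 leading members had more calls than 96.9%, 96.3% and 95.8% of these baits, whereas CD84 and CD244 exceeded 52.9% and SLAMF8 exceeded 41.2%.

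In mESCs the order was another. Cd2 had 21 calls as bait, more than 94.7% of mESC baits with a call, and Cd244 had 11. Cd84 had 6 calls, Slamf7 had 4, Slamf1 had 3, Slamf6 had 2 and Cd48 had 1, against a median of 3 over the 16265 mESC baits with a call. SLAMF1 and SLAMF6, highest in GM12878, were thus at or below this median in mESCs, while CD2, CD244 and CD84 had more calls in mESCs than in GM12878. Of the 11 Cd244 calls, 4 were in trans. Without a spread between replicates, these differences in small counts were not tested.

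**Figure D1:**
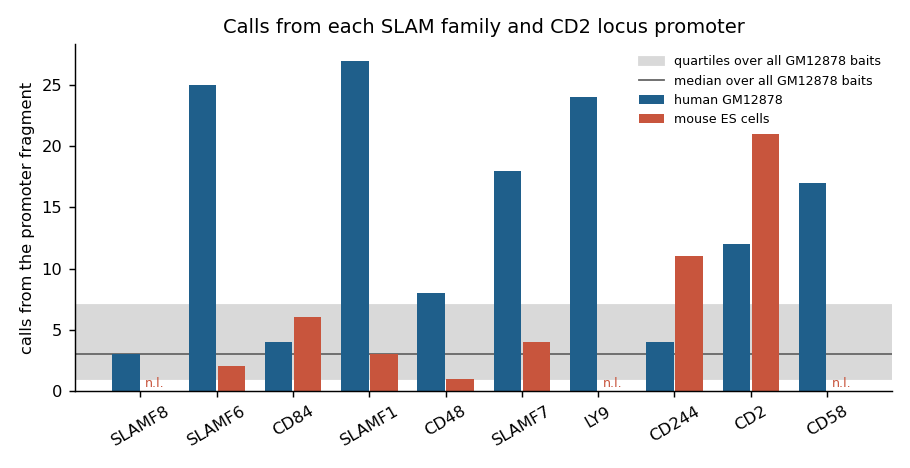
Number of calls from each member's promoter fragment in GM12878 (blue) and mESCs (red). The line and the grey band give the median of 3 and the quartiles of 1 and 7 over all GM12878 baits with a call. The letters n.l. mark a member with no listed fragment, and SLAMF1 with 27 and Cd2 with 21 calls are the highest of each cell type.

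All 172 GM12878 calls of the members were in cis, against 288 trans calls among all 92929, and a count of 0 among 172 allows a share of up to 1.74%. Their median distance was 133 kb (order-statistic 95% interval, 92.7 to 158), against 174 kb over all GM12878 cis calls. Median reads per call were 17 against 16, and median scores 6.61 against 6.62. With a member as the bait, the median over 142 calls was 96.2 kb. The other end of these 142 calls was itself a promoter fragment in 25, or 17.6% (Wilson 95% interval, 12.2 to 24.7), beside 29.4% of all GM12878 calls. Over all 172 calls the number was 55, or 32.0% (25.5 to 39.3), but that share is raised by the rule, since a call kept for a member at its other end has promoters at both ends. A score of at least 10 was reached by 21 calls, or 12.2% (8.13 to 17.9), beside 16.3% of all GM12878 calls. In reads and median score the members thus lay close to the list as a whole, while their calls were shorter than its median. The 50 cis calls of the members in mESCs had a median distance of 245 kb (151 to 310), against 139 kb over all mESC cis calls. Cd2 gave 25 of the 50, with a median of 310 kb. The medians of the other listed members ran from 37.8 kb for Cd244 to 226 kb for Slamf6, so the pooled value largely reflects Cd2. Of the 54 mESC calls, 12 reached a score of 10, or 22.2% (13.2 to 34.9), beside 16.9% of all mESC calls. Cd2 gave 7 of these 12 calls.

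Contacts between the SLAM promoters themselves were few. Of the 27 pairs of 1q23 promoters less than 1 Mb apart, 5 were joined by a call, or 18.5% (8.18 to 36.7). All 5 lay within the core cluster, where they made 23.8% of 21 pairs (10.6 to 45.1). The background falls with distance. Among all pairs of listed promoter fragments, a call joined 30.6% of those under 50 kb apart, 29.1% at 50 to 100 kb, 25.3% at 100 to 200 kb, 13.1% at 200 to 500 kb and 2.19% at 500 to 1000 kb. At these shares the 21 core pairs would hold 4.89 called pairs, so the number found was near the background.

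The pair nearest to each other, CD48 and SLAMF7, 27.1 kb apart, had a mean of 40 reads and was called from both ends with scores of 8.27 and 5.83. SLAMF7 and LY9, 58.9 kb apart, had 35 reads. SLAMF1 and LY9, 146 kb apart, had 28 reads, and SLAMF1 and CD244, 209 kb apart, had 20. CD48 and LY9, 85.9 kb apart, had 23 reads and were called from the CD48 end only. Between the named promoter fragments, SLAMF6 and CD84 were joined to no other member, although SLAMF6 had calls on 17 fragments within the cluster. SLAMF8 was joined to none either. Unbaited fragments with a further annotated start of a member were not counted as that member. SLAMF6 was called with such a CD84 fragment, chr1:160516245-160522335 (24 reads, score 5.03). SLAMF1 and LY9 were called with such a CD244 fragment, chr1:160804092-160810769 (17 and 29 reads). LY9 was also called with chr1:160832705-160835580, which adjoins the CD244 fragment upstream (21 reads). CD48 and CD244, which encode a ligand and its receptor, lay 150 kb apart without a call, and so did CD2 and CD58 at 183 kb. Of the 5 joined pairs 4 were called from both ends, or 80% (37.6 to 96.4). Of all promoter pairs with a call in GM12878 18.5% were, a share not matched for distance.

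In mESCs, 5 of 15 core pairs were joined, or 33.3% (15.2 to 58.3). The background there was 34.8% under 50 kb, 30.5% at 50 to 100 kb, 24.2% at 100 to 200 kb, 11.0% at 200 to 500 kb and 1.97% at 500 to 1000 kb, which gives 3.32 called pairs. Cd84 took part in 3 of them, with Slamf6, Slamf1 and Cd244, and Cd244 took part in 3, with Cd84, Slamf1 and Slamf7. The reads ran from 6 for Cd84 with Slamf6 and with Cd244 to 15 for Slamf7 with Cd244. None of the 5 was called from both ends, or 0% (0 to 43.4), an interval that holds the 26.2% of all mESC promoter pairs with a call. SLAMF1 with CD244 was the only member pair called in both species, at 209 kb with 20 reads in GM12878 and at 212 kb with 11 reads in mESCs.

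**Figure D2:**
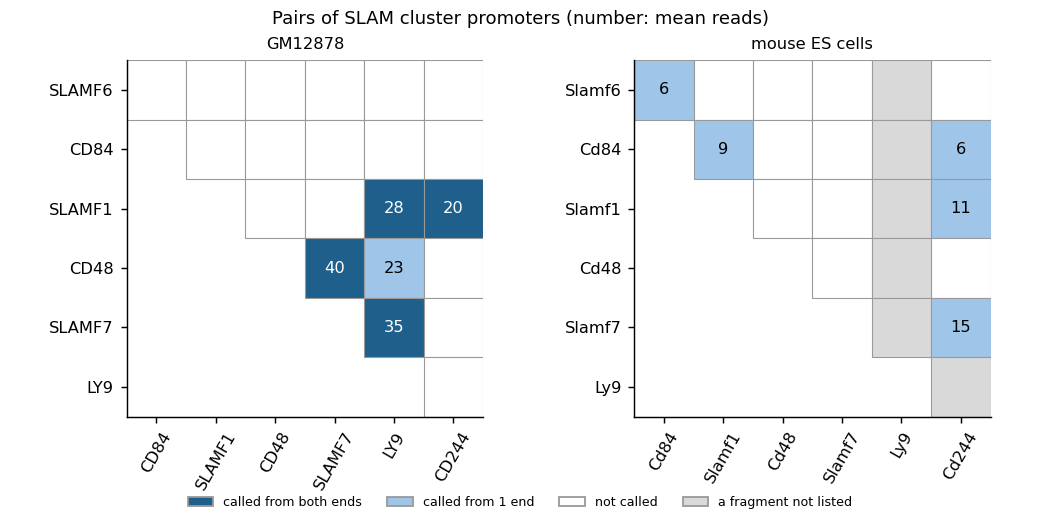
Pairs of core SLAM promoters in GM12878 (left) and mESCs (right). Dark cells were called from both ends, light cells from 1 end, white cells were not called, grey cells involve the unlisted Ly9 fragment, and the number in a cell is the mean reads of the pair, 40 at most (CD48 with SLAMF7).

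Beside the promoter fragments described below, the human SLAM promoters shared unbaited fragments, those that carry no captured promoter. Their 117 calls to unbaited fragments, CD2 and CD58 included, fell on 78 fragments, of which 27 were called from 2 or more members and 8 from 3 or more. Fragments called from 2 or more baits of any kind made up 56 of the 78, or 71.8% (61.0 to 80.6), beside 31.6% of all unbaited fragments with a call. Since a fragment with many baits has more chances to be met, the share was also taken over calls. By that measure 81.2% of the members' calls (73.2 to 87.2) went to such fragments, beside 58.1% of all GM12878 calls to unbaited fragments. Nearby promoters share fragments more easily than distant ones, and the part that the close spacing of the members has in these shares was not tested. In mESCs 33 unbaited fragments were called from members, 2 of them from 2 or more members. Cd2 made 21 of the 48 mESC calls with a member as the bait and was the only member listed on its chromosome. Its fragments thus had no other member in cis to share them. A further 4 calls were trans calls of Cd244. Fragments called from 2 or more baits of any kind were 5 of the 33, or 15.2% (6.65 to 30.9), beside 34.4% of all unbaited mESC fragments with a call. Over calls the share was 22.2% (11.7 to 38.1), beside 64.1% of all mESC calls to unbaited fragments.

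The unbaited fragments shared by most members lay outside the cluster, in the 56.4-kb gap between VANGL2 and the end of SLAMF6. This gap holds no gene, and VANGL2 is a gene of planar cell polarity. The 2927-bp fragment chr1:160398760-160401686 was called from 5 members. SLAMF6, 94.0 kb away, contacted it with 27 reads and a score of 16.25, and SLAMF1, 222 kb away, with 22 reads and a score of 12.32. Further off, CD48 at 282 kb had 9 reads and a score of 7.38, and SLAMF7 at 309 kb had 9 reads and a score of 5.65. LY9, the most distant of the 5 at 368 kb, had 12 reads and a score of 8.51, which was the highest score of any LY9 call. CD84 and CD244 had no call there. The fragment had 7 baits in all, more than 98.6% of unbaited fragments with a call, the remaining ones being the promoters AL138930.1 and RP11-404F10.2. The ends of this fragment are the sequences that were ligated in the assay, and they are given on the plus strand of hg19 with the HindIII sites in capitals.
Low end, chr1:160398759-160398878: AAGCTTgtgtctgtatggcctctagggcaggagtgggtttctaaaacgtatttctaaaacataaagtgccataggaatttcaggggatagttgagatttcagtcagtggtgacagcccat
High end, chr1:160401572-160401691: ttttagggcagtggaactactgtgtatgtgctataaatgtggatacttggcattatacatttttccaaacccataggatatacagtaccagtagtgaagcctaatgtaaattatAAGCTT

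The fragment held no CTCF core, EBF1 or PU.1 and IRF composite match, and 2 RUNX matches near its high end, in capitals in the next lines. A RUNX match was present in 41.3% of listed GM12878 fragments of like length, within 20%.
RUNX match at chr1:160401543-160401550: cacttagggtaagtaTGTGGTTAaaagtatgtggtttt
RUNX match at chr1:160401557-160401564: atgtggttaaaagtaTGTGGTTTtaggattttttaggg
Among the 8 unbaited fragments called from 3 or more members, 1 held a CTCF core, 2 held an EBF1 match, none held the composite match and 5 held a RUNX match. Of fragments of like length, 10.0% to 22.5% held a CTCF core, 4.99% to 11.9% an EBF1 match, 6.70% to 14.6% the composite match and 38.7% to 69.8% a RUNX match, depending on the length. That CTCF core lay in a fragment of the CD244 gene, chr1:160804092-160810769, called from SLAMF1, LY9 and CD244.

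Along the gap the contacts formed a graded block. The digest made 26 fragments there, and 10 of them were called from at least 1 member. SLAMF6 had a call on all 10, SLAMF1 on 7, CD84 on 3, SLAMF7 and LY9 on 2 each, CD48 on 1 and CD244 on none. The 5 consecutive fragments next to VANGL2, 11.2 kb in all, were each called from both SLAMF6 and SLAMF1. Promoters outside the family reached 3 of the 26 fragments. The fragments chr1:160403363-160406804 and chr1:160406805-160409512 were each called from 4 members, SLAMF6, CD84 and SLAMF1 together with LY9 or SLAMF7. The next was chr1:160416756-160421622, called from SLAMF6, CD84 and SLAMF1 and from no other promoter. CD84 made 3 of its 4 calls in the gap, with 9, 9 and 11 reads. The 13 fragments of the gap nearest to the SLAMF6 gene had fewer calls, with 1 of them, chr1:160433417-160434800, called from SLAMF6. No fragment in the corresponding 52.0-kb gap was called from a member in mESCs.

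**Figure D3:**
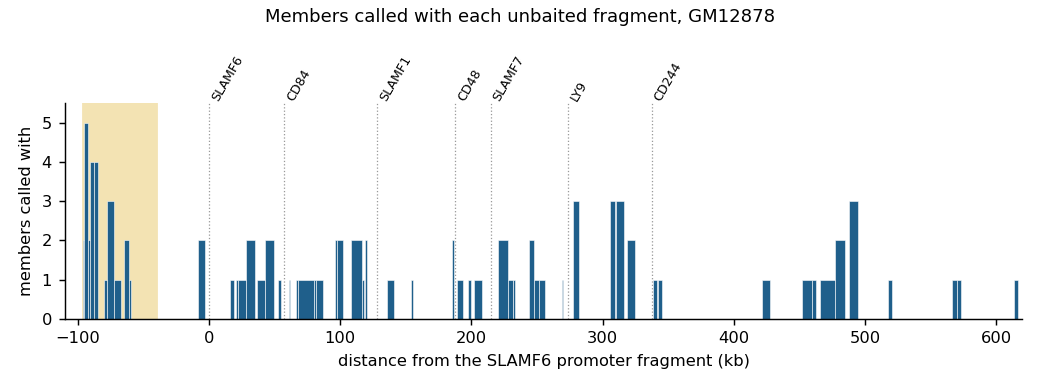
Number of members called with each unbaited fragment along the 1q23 cluster in GM12878. Bars have the width of the fragment, dotted lines mark the promoter fragments, and the shaded gap between VANGL2 and SLAMF6 holds the fragment called from 5 members and both fragments called from 4.

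The direction of the contacts changed along the cluster. SLAMF6 had 10 of its 27 partners in the gap, 17 within the cluster and none beyond CD244, and its longest call spanned 117 kb. SLAMF1 reached both ways, with 7 partners in the gap and 4 beyond CD244. LY9 and SLAMF7, nearer to the other end, had 12 of 29 and 9 of 22 partners beyond CD244. CD244 itself, at that end, had all 4 of its partners within the cluster. The fragment chr1:160799641-160804007, over the 3′ end of CD244 beside the end of LY9, was called from SLAMF1 (23 reads, score 11.22), SLAMF7 (24 reads, 11.91) and LY9 (35 reads, 8.42), and from 4 other baits. Beyond CD244, SLAMF1, SLAMF7 and LY9 met again at chr1:160981719-160988835, in an intron of F11R, which encodes a junctional adhesion molecule. This fragment was also called from 8 other baits, 11 in all, more than 99.7% of unbaited fragments with a call.

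**Figure D4:**
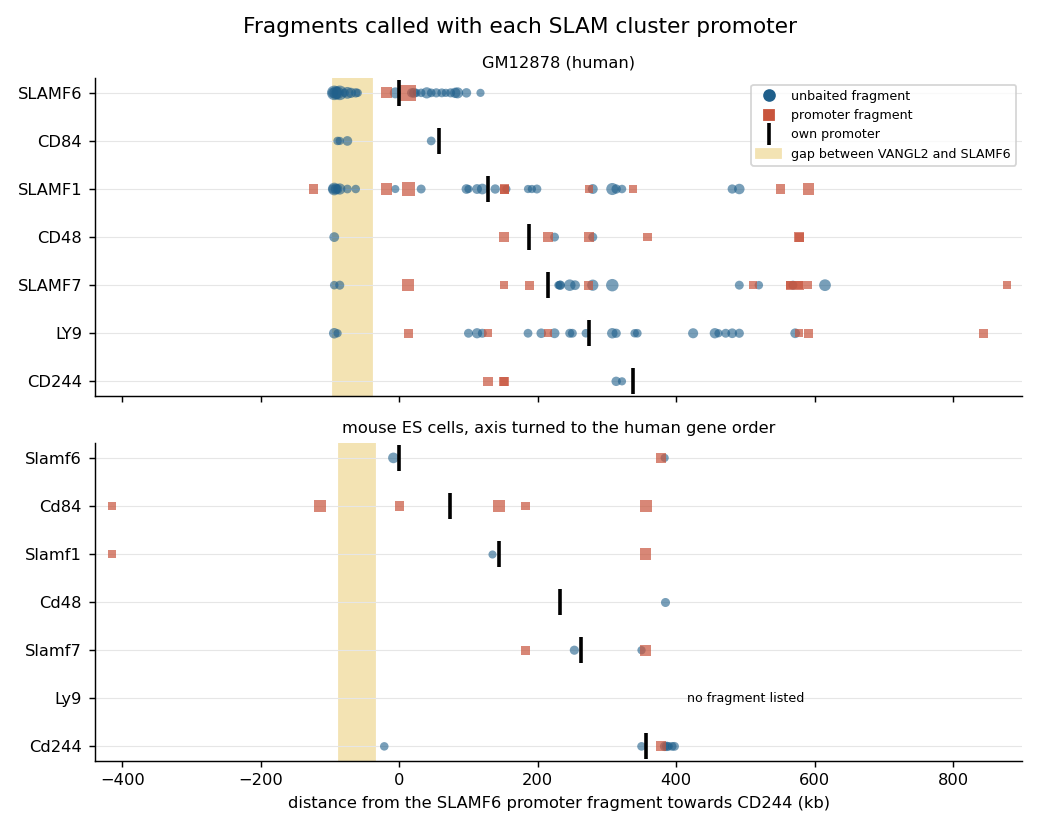
Position of every chromosome 1 partner of the 7 core SLAM promoters, in kb from the SLAMF6 promoter fragment, in GM12878 (top) and mESCs (bottom, turned to the human gene order). Circles are unbaited fragments, squares promoter fragments, their area follows the score, a contact between members stands in the row of the member it was called from, and the gap next to SLAMF6 holds partners of 6 of the 7 human promoters and of no mouse promoter.

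In all, 8 non-member promoter fragments were called with more than 1 member in GM12878. The long noncoding RNA promoter RP11-528G1.2, between SLAMF6 and CD84, was called with SLAMF6, SLAMF1, SLAMF7 and LY9. The call with SLAMF6, 12.7 kb away, had 28 reads and the highest score of the SLAM cluster, 20.57. Those with SLAMF1 and SLAMF7 had scores of 13.26 and 11.82 on 12 and 8 reads, and that with LY9, 261 kb away, had 5 reads. All of them were called from the noncoding end. A further noncoding promoter, RP11-404F10.2, next to the end of CD48, was called with SLAMF1, CD48, SLAMF7 and CD244, with 17 to 75 reads. KLHDC9 and the fragment shared by NIT1 and PFDN2, which encode a nitrilase-like protein and a prefoldin subunit, lay beyond CD244. Both were called with SLAMF7 and LY9, KLHDC9 also with CD48, and the NIT1 and PFDN2 fragment also with SLAMF1, over 304 to 462 kb. AL138930.1, within the SLAMF6 gene, was called with SLAMF6 and SLAMF1.

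SLAMF8 stood apart from the cluster. Its 4 calls all went to promoter fragments within 63.3 kb. These carried SNORD64 (56 reads, score 8.33), FCRL6, an Fc receptor-like gene (32 reads, 6.44), the phosphatase gene DUSP23 (29 reads, 6.99) and CCDC19, now named CFAP45 (16 reads, 13.23).

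At 1p13, CD2 and CD58 were not joined to each other but shared several partners, the highest scoring of which lay in a distant common region. The annotated genes on its shared fragments were CD101-AS1 (RP11-27K13.3 in the list), an antisense RNA of the leukocyte receptor gene CD101, and TTF2, a transcription termination factor. From CD2 the TTF2 fragment chr1:117602664-117607113 lay 309 kb away and had 14 reads. The call had a score of 26.54 from the TTF2 end, the highest of all members in GM12878 and above 99.3% of GM12878 calls, and 9.07 from the CD2 end. CD58, 492 kb away, was called with the same fragment with 7 reads and a score of 12.62, from the TTF2 end only. The fragments chr1:117583613-117594171, chr1:117594172-117600461 and chr1:117600462-117602628, which follow each other and are parted from the TTF2 fragment by a short HindIII fragment, were called from both CD2 and CD58. For CD2 these 3 had 13, 14 and 16 reads and for CD58 11, 15 and 12. The highest score of CD58, 14.16, was on chr1:117594172-117600461. This fragment and chr1:117583613-117594171 had 6 baits each, more than 97.7% of unbaited fragments with a call. Of these baits 4 were not members, among them IGSF3, MIR320B1 and PTGFRN, so the region was not particular to CD2 and CD58. Nearer to CD2, the unbaited intergenic fragments chr1:117356852-117369689 and chr1:117371750-117384863 were called from both as well. From CD2 they lay 67.3 and 82.3 kb away with 18 reads each, and from CD58 they had 13 and 12 reads. They had 3 and 5 baits in all. AL157904.1 was also called with both.

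All 17 calls of CD58 as bait went towards higher coordinates, the side of CD2. They included chr1:117299606-117308574 (12 reads, score 5.18), which adjoins the CD2 promoter fragment and lies in the CD2 gene, while the CD2 promoter fragment itself was not called. CD58 was also joined from both ends to IGSF3, an immunoglobulin superfamily gene (27 reads), and to MIR320B1 (30 reads). On its lower side, CD58 was called from RNU6-817P, 155 kb away (7 reads, score 7.11). CD2 had 2 calls on its lower side and 10 on the side of TTF2.

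The contact of CD2 with TTF2 was the only one between a member and a non-member promoter found in both species. In mESCs the pair lay 319 kb apart and had 25 reads, with a score of 26.49 from the Ttf2 end and 13.56 from the Cd2 end. In both cell types the call from the TTF2 end was thus the highest scoring call of CD2. With CD2 as the bait, other fragments scored above TTF2 in both. The highest were chr1:117594172-117600461 in GM12878, with 11.58, and chr3:100776837-100783580 in mESCs, with 21.86. Around the mouse Ttf2 promoter, Cd2 was joined to a run of 5 consecutive fragments over 20.2 kb, chr3:100764269-100784507, with 13 to 27 reads and scores up to 21.86 on unbaited fragments. Cd101, Ptgfrn and Trim45 were further partners, with 16, 18 and 6 reads. Of the 25 calls of Cd2, 2 went to the side of Igsf3.

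**Figure D5:**
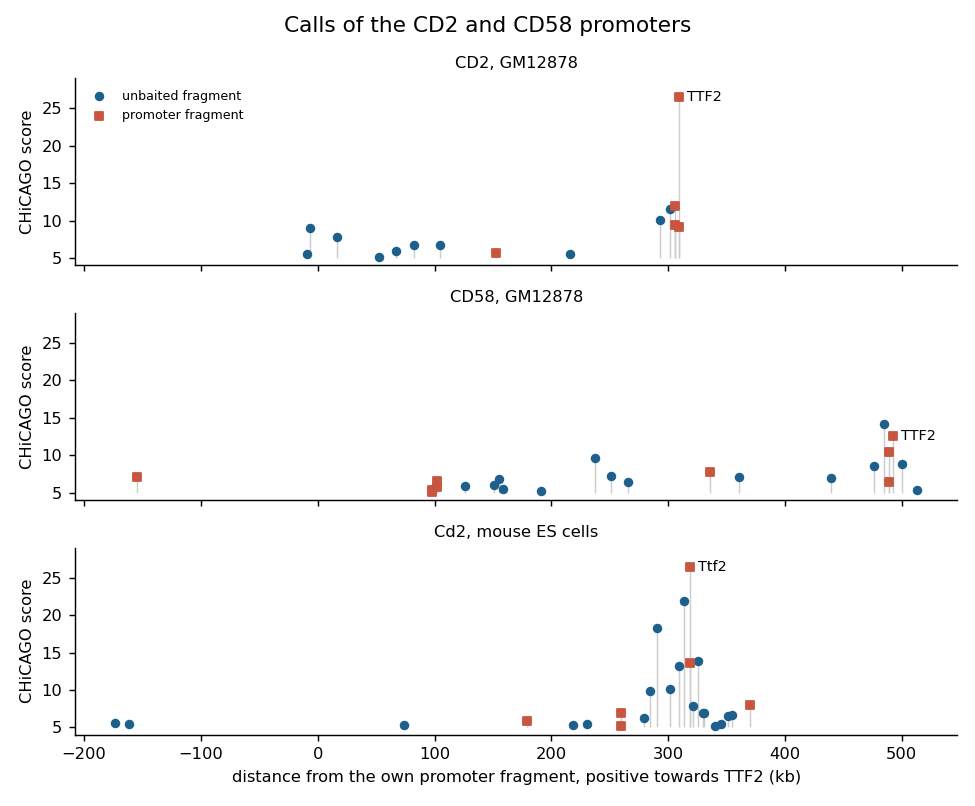
CHiCAGO score of each call of CD2 and CD58 in GM12878 and of Cd2 in mESCs against the distance from the own promoter fragment in kb, positive towards TTF2. Circles are unbaited and squares promoter fragments. The highest CD2 calls, made from the TTF2 end, stand at 309 kb (score 26.54) and 319 kb (score 26.49).

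The ends of the human and mouse TTF2 promoter fragments, where CD2 was ligated, are given on the plus strand with the HindIII sites in capitals.
Human low end, hg19 chr1:117602663-117602782: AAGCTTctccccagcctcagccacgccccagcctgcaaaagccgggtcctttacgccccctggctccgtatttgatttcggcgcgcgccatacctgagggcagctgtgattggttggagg
Human high end, hg19 chr1:117606999-117607118: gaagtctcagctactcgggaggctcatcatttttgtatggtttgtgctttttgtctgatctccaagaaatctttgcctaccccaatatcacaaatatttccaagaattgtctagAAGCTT
Mouse low end, mm9 chr3:100773065-100773184: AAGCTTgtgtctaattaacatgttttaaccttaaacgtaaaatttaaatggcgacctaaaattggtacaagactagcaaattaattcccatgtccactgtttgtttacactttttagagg
Mouse high end, mm9 chr3:100776722-100776841: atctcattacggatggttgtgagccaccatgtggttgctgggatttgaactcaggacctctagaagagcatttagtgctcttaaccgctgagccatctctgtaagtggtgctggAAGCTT
The human fragment held no CTCF core match, which 14.5% of fragments of like length did. The mouse fragment held 2, shown with the 12-base core in capitals, where 30.3% of mESC fragments of like length held at least 1. The 42-base windows were alike at 33 positions.
mm9 chr3:100775672-100775713: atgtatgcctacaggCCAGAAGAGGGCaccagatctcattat
mm9 chr3:100776690-100776731: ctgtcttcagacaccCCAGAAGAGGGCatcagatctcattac

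The mESC Hi-C library, which the paper describes as pre-capture, gave a view of Cd2 without the capture step. It was therefore not taken as independent of the CHi-C libraries. In 25-kb bins, 26 read pairs joined the bins of Cd2 and Ttf2, where 3.19 were expected from coverage and distance. Of the 50 cis calls of the members in mESCs, 5 lay within bin pairs with an FDR under 0.05, or 10% (4.35 to 21.4), beside 11.6% of all mESC cis calls under 1 Mb. All 5 fell in the bin pair of Cd2 and Ttf2, and 2 of them were the Cd2 and Ttf2 pair called from both ends. With every listed bin pair the number was 14, all of Cd2, or 28% (17.5 to 41.7), beside 29.9%. Both shares were near the background. The list also holds bin pairs with an FDR up to 1, and of its 62666 bin pairs 6135 had an FDR under 0.05. A bin pair missing from it is not a measured 0.

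In the mouse SLAM cluster, 2 unbaited fragments were each called from more than 1 member. The fragment chr1:173458183-173463679, in Itln1, which encodes an intelectin, was called from Cd244 (31 reads), Cd48 (6 reads) and Slamf6 (5 reads). It is the last of 5 consecutive fragments called from Cd244. The fragment chr1:173494218-173494484, in an intron of Cd244, was called from Slamf7 (7 reads) and Cd244 (81 reads). The Itln1 promoter was called with Cd244 and Slamf6, Kcnj9, a potassium channel gene, with Cd84 and Slamf1, and a U6 small nuclear RNA promoter with Cd84 and Slamf7. In GM12878 the ITLN1 promoter was called with CD48 (14 reads, score 5.04).

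Cd244 was the only member with trans calls in mESCs, 4 of its 15. The call with chr14:90484242-90487794 had 26 reads and a score of 185.63, above 99.98% of mESC calls. The calls with chr7:55042510-55048381, chr14:105440654-105448071 and chr3:29710437-29713766 had 6, 4 and 3 reads. None of the 4 fragments was called from another bait. A blastn alignment of the chromosome 14 fragment of highest score with the Cd244 fragment found 4 stretches alike, the best over 66 bp at 87.9% identity, and found none for the other 3 fragments.

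Of 11 further genes, the signalling partners of the receptors and SLAMF9, 10 had a listed fragment in GM12878 and 7 in mESCs, and SH2D1A had none in either. PTPN6, the phosphatase SHP-1, had 33 calls at either end over 2 listed fragments in GM12878, and 17 over 1 listed fragment in mESCs. CD2BP2, named for its binding to the CD2 tail, had 42 and 32. As bait alone, CD2BP2 had 29 and 14 calls, and PTPN6 had 24 over its 2 fragments and 13 over 1. The median over all baits with a call was 3 in each cell type. Counts at either end have no such background here. The kinase FYN, which SAP recruits, had 5 and 6, and LCK, a kinase that binds CD2, had 5 and 1. PSTPIP1 and INPP5D had 1 call each in GM12878, CD2AP had 15 over 2 fragments, PTPN11 had 4 and SH2D1B had 2. In mESCs PTPN11 had 5 calls and INPP5D had 3. SLAMF9, which lies near SLAMF8, had 5 calls in GM12878 and 3 in mESCs.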

How the data were processed

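Promoter CHi-C was analysed in 3 replicates of GM12878 and 2 of mESCs, and Hi-C in 1 library of mESCs. Per the labels and methods, the authors mapped reads to hg19 or mm9 with HiCUP and Bowtie 1.1.0 and called contacts with CHiCAGO on all replicates of a cell type together. The deposited lists give a score for each call, the CHiCAGO score (at least 5), and a read number that is a mean over replicates, weighted and rounded by the authors, hence a score-like value and not a raw count. For Hi-C, the authors called bin pairs with HOMER 4.7. Its deposited count of read pairs per 25-kb bin pair is raw, the expected number, a coverage-based signal, was computed by HOMER and deposited by the authors beside it, and the deposited FDR is an adjusted p-value. The lists give no depth per replicate, and the number of calls sets the precision here. The paper reports the captured read pairs of each replicate, and proposes that the first GM12878 replicate was of poorer quality than the others.

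The symbols of each fragment were split, transcript suffixes removed and matched to the 10 members, ignoring case. Distances are between fragment midpoints. A fragment counted as baited where it was a bait of any call or carried a gene name. Where both ends of a promoter pair gave a call, both were counted. Background shares were taken over all listed promoter pairs of the same distance class, all unbaited fragments, or all calls. The number of called pairs at the class shares is a description, not a test. The genomes were cut at HindIII sites, and 100% of the 56775 human and 52640 mouse listed fragments matched this digest. Gene positions came from annotations lifted to or made on the same builds. Promoter sequences are RefSeq's for GRCh38.p14, and their coordinates are of that build. Counting was checked on a made list with known answers, with Python 3.11.15, pandas 2.3.3, SciPy 1.17.1 and blastn 2.17.0.

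The members, the gene list and the named items (for each member the calls of highest score and of most reads, the non-member promoters called with 2 or more members, and the 5 unbaited fragments called from the most members) were chosen with earlier results of these data known. The 1-Mb Hi-C list was not used, since its bins are wider than the cluster. Alternatives were a score of at least 10, the browser list with each pair once, the member on the bait only, at least 10 reads, spans of at least 20 kb, distances between fragment edges, and fragments with an annotated start of a member. Protein sequences were not analysed here.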

Additional observations from a re-analysis of the deposited data

How the results depend on the processing

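Of 43 values recomputed under the alternatives, 34 stayed within 1.5 times the reported count or within the interval of the reported share or median. A score of at least 10 changed most of them. It left 21 GM12878 and 12 mESC calls of the members, 3 unbaited fragments called from 2 or more members, and a median distance of 179 kb. It left 0 joined member pairs in GM12878, a share of 0%, and 1 in mESCs. With at least 10 reads, 2 mESC member pairs were joined. With the member on the bait only, the share of calls with a baited other end was 17.6%, below instead of above the 29.4% of all calls. The browser list, with each pair once, gave 158 and 52 calls, 5 member pairs in each species and 27 shared fragments. No paired analysis was possible because the lists pool the replicates of each cell type. For the same reason no replicate could be left out, and a pair that was not called may lie below what this depth detects.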
